A study of Mus musculus with 8 samples.

Results

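Cyclic nucleotide phosphodiesterases are the enzymes that break down cAMP and cGMP. The 7 genes described here are Pde2a, Pde3b, Pde4a, Pde4b, Pde4d, Pde7a and Pde8a, out of 22432 genes in the deposited expression table, and all 7 passed the minimum on expression. They were selected by gene symbol, with earlier results of the same libraries known, in which Pde2a and Pde3b had already stood out between Nfkb2-deficient cells and the others. Their values are therefore a description, and a count of called members is no independent support for any pattern among them. The other 17 genes listed for the family are given after the 7.

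The cells were mouse regulatory T (Treg) cells on a C57Bl/6 background, and every group carried Foxp3-CRE-YFP, so that Cre is made in Foxp3-expressing cells. DKO cells also carried RelB F/F and nfkb2 F/F, Nfkb2-KO cells carried nfkb2 F/F, RelB-KO cells carried RelB F/F, and WT cells carried the Cre reporter alone, with n = 2 libraries in each of the 4 genotypes. YFP-positive cells from spleen and lymph nodes, combined before sorting, were stimulated for 16 h on plates coated with anti-CD3 (5 µg/ml) with anti-CD28 (1 µg/ml), an OX40 agonist antibody (2 µg/ml) and IL-2 (10 ng/ml). TruSeq libraries were prepared from total RNA. The labels do not say that the replicates came from separate animals, so a p value measures only the spread between these libraries, which may be technical outside WT, whose libraries differed in sex-linked transcripts.

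T cells use cAMP as a brake. Gs-coupled receptors, such as those for adenosine and prostaglandin E2, drive adenylyl cyclases, and cAMP then acts through protein kinase A, which dampens T cell receptor signalling and phosphorylates CREB. Treg cells are known for holding more cAMP than conventional T cells and for passing it to their targets, and Foxp3 is known to repress Pde3b. Phosphodiesterases end the signal and differ in what they cleave and how they are controlled. The products of Pde2a and Pde3b cleave both cAMP and cGMP, the first being stimulated and the second inhibited by cGMP. Pde4a, Pde4b and Pde4d encode the rolipram-sensitive enzymes specific for cAMP, and Pde7a and Pde8a encode cAMP-specific enzymes that rolipram does not block.

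What the 7 members share beyond their names can be read in their coding sequence. All 7 hold the histidine-aspartate signature of the catalytic domain, whose residues bind the metal ions needed for hydrolysis, and the 36 bases that encode it are printed here from the longest coding transcript of each gene (GENCODE M21 transcripts, build mm10, 5′ to 3′ on the gene's strand). Capitals mark the codons of the first histidine, the aspartate next to it and the second histidine.
Pde2a: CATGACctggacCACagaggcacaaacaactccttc
Pde3b: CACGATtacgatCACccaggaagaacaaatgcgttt
Pde4a: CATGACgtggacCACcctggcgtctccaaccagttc
Pde4b: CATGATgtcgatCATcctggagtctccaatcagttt
Pde4d: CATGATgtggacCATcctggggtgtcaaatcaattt
Pde7a: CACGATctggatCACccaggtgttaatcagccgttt
Pde8a: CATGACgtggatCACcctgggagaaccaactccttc

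Each stretch lies within 1 exon. For Pde2a it is at chr7:101508482-101508517 (plus strand, exon 24 of 31), and for Pde3b at chr7:114526921-114526956 (plus strand, exon 12 of 16). For Pde4a it is at chr9:21204375-21204410 (plus strand, exon 11 of 15), for Pde4b at chr4:102599694-102599729 (plus strand, exon 13 of 17) and for Pde4d at chr13:109939313-109939348 (plus strand, exon 11 of 15). For Pde7a it is at chr3:19233715-19233750 (minus strand, exon 8 of 13) and for Pde8a at chr7:81324067-81324102 (plus strand, exon 18 of 22). Of the 36 bases, 13 were the same in all 7 genes. Pde4b and Pde4d were the closest pair, with 30 of 36 bases the same, and Pde2a and Pde4b the least alike, with 17. Pde2a and Pde3b, the pair whose expression differed most between genotypes, shared 20. Of the 24 family genes searched, 21 held the signature; the exceptions were Pde6d, Pde6g and Pde6h, whose products are non-catalytic subunits or partners of the photoreceptor enzyme.

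The deposited values are log2 expression, called RPKM and batch corrected in the file header. They do not behave as RPKM, since weakly expressed genes have nearly the same value in every library and the un-logged values sum to between 18.2 and 19.7 M per library. Whether length was divided out is not settled, so levels are compared between libraries and not between genes. The counts behind the values were not used here, so depth is known only from the series design, which states 30 M reads for a sample, and a shrunken scale makes differences too small where expression is weak. Genes count as called where a limma model of the 4 genotypes gave an adjusted p (Benjamini-Hochberg, 13797 genes) under 0.05. Libraries with the same replicate number moved together, so each result is also given from a model with replicate number as a block where that changes a call.

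The libraries were checked against their labels. Relb was at 6.74 and 7.08 in DKO and at 6.35 and 6.52 in RelB-KO, against 10.66 and 10.49 in WT. Nfkb2 was at 9.29 and 9.85 in DKO and at 8.75 and 8.79 in Nfkb2-KO, against 12.80 and 12.62 in WT. WT replicate 1 differed from all the rest in sex-linked genes. The X-inactivation transcript Xist was at 8.17 there and at 14.61 or more in each remaining library, and the Y-linked gene Ddx3y was at 11.60 there and between 4.25 and 4.35 in the remaining libraries. WT replicate 1 thus had the pattern of male cells and the other 7 libraries that of female cells, and sex cannot be told apart from replicate within WT. Results of Pde2a and Pde3b that use WT are therefore also given without it. Of 7 Treg and T cell markers all were tested, with Foxp3 between 13.95 and 14.28. Of markers of other cells, Pax5, Klra1, Cdh5 and Hba-a1 were listed at 0, and Cd8a lay between 0.87 and 0.92. Others in the same lists were higher: Cd8b1, which encodes the CD8 beta chain, lay between 7.57 and 7.87 and made up most of the summed un-logged level of 192 to 237 over 5 CD8 T and NK cell markers. The B cell receptor gene Cd79b was at 7.63 and 7.72 in DKO, 7.58 and 7.50 in Nfkb2-KO, 7.61 and 7.19 in RelB-KO, and 7.09 and 7.35 in WT. The part of these markers in the results was not tested.

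Pde2a was low in Nfkb2-KO cells alone among the 4 genotypes. Pde2a encodes the phosphodiesterase that cGMP stimulates, and its gene spans chr7:101421691-101512827 on the plus strand (mm10). Its log2 expression was 10.38 and 10.11 in DKO, 8.64 and 8.53 in Nfkb2-KO, 10.81 and 10.09 in RelB-KO, and 10.17 and 10.24 in WT. Both Nfkb2-KO libraries lay below every other library, and the libraries of DKO, RelB-KO and WT overlapped. In order from high to low the means were RelB-KO 10.45 ± 0.51, DKO 10.24 ± 0.19, WT 10.21 ± 0.05 and Nfkb2-KO 8.58 ± 0.08 (SD, n = 2 each). The first 3 did not differ beyond their spread.

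Pde3b, whose product is inhibited by cGMP, was lowest in Nfkb2-KO cells as well, and highest in DKO cells. Its gene spans chr7:114415281-114539251 on the plus strand. Its log2 expression was 7.40 and 7.68 in DKO, 6.32 and 6.40 in Nfkb2-KO, 6.69 and 6.86 in RelB-KO, and 7.05 and 6.80 in WT. Both DKO libraries lay above all others and both Nfkb2-KO libraries below all others, while RelB-KO and WT overlapped. The means were 7.54 ± 0.20 in DKO, 6.36 ± 0.05 in Nfkb2-KO, 6.78 ± 0.12 in RelB-KO and 6.93 ± 0.18 in WT (SD, n = 2 each).

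**Figure D1:**
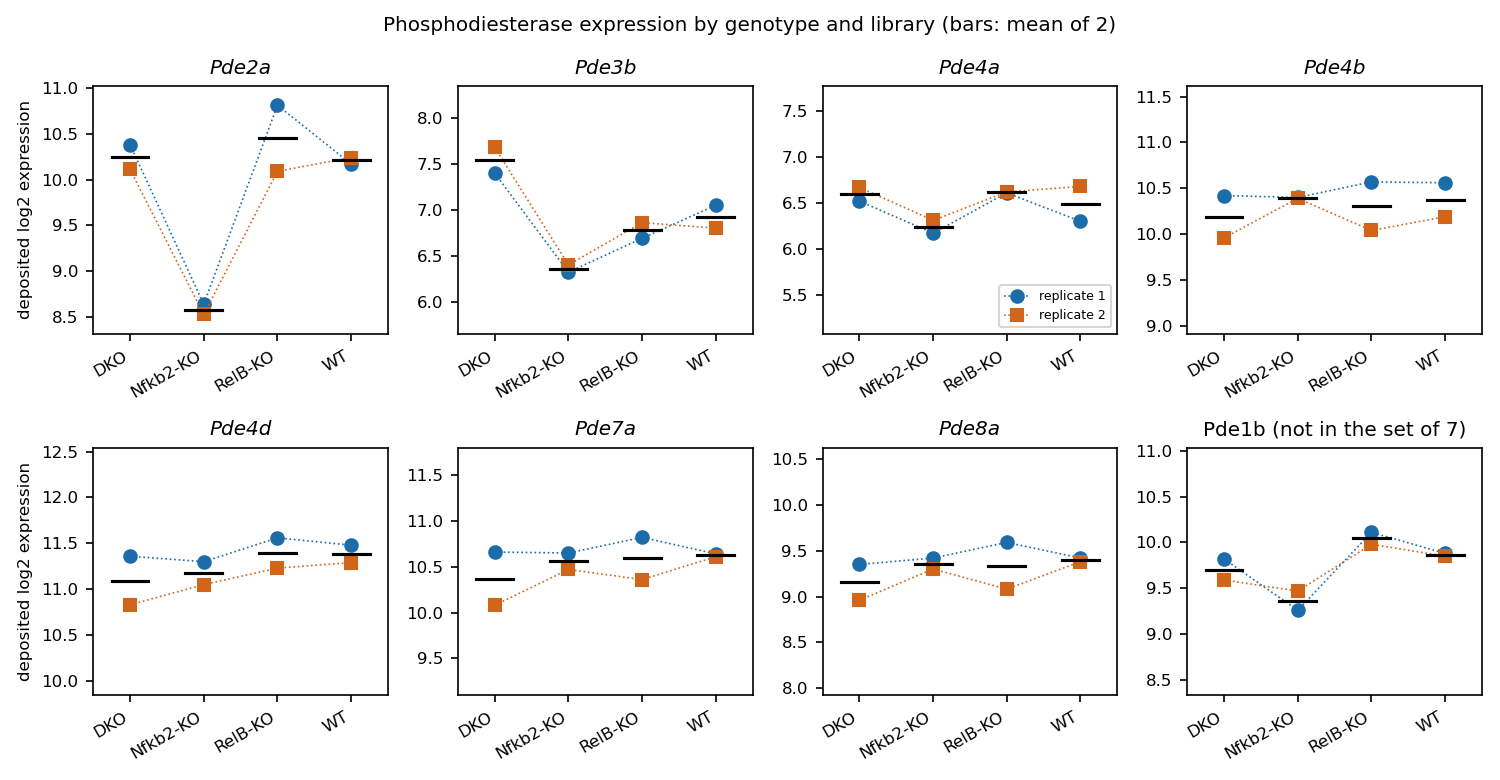
Deposited log2 expression (y axis, each panel spanning the same range) of the 7 phosphodiesterase genes and of Pde1b in each library, by genotype (x axis). Circles are replicate 1, squares replicate 2, bars the mean of n = 2, and dotted lines only join libraries with the same number. Pde2a is at 8.64 and 8.53 in Nfkb2-KO and at 10.09 or more in every other library, and Pde3b is at 7.40 and 7.68 in DKO and 7.05 or less elsewhere.

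Removing RelB from Nfkb2-deficient cells was accompanied by more Pde2a and Pde3b. The targeted Nfkb2 transcript was itself higher in DKO than in Nfkb2-KO, by 0.80 ± 0.20 (SE). Its limma adjusted p was 0.184, and 0.0379 with the replicate block. The part of this Nfkb2 difference in the results was not tested. Pde2a was higher in DKO than in Nfkb2-KO by 1.66 ± 0.22 (SE of the limma model), a 3.16-fold difference on the un-logged scale, with a 95% interval of 1.12 to 2.20. Within replicate 1 the difference was 1.74 and within replicate 2 it was 1.58. Pde3b was higher by 1.18 ± 0.14 (2.27-fold, interval 0.85 to 1.51), with 1.08 within replicate 1 and 1.28 within replicate 2. These are the differences by which the pair had stood out before, so no p is given for them. In this comparison limma called 2 of 7 members higher, beside 0.123% of all tested genes called higher and 0.645% called lower. With the replicate block the same 2 members were called, beside 2.07% of genes called higher. Without the block the count was 1 when any single RelB-KO or WT library was left out and 0 when any single DKO or Nfkb2-KO library was. With the block it was 2 whichever library was left out.

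The other 5 members did not pass between DKO and Nfkb2-KO. Pde4a, which encodes a cAMP-specific enzyme of the PDE4 subfamily (chr9:21165714-21213248, plus strand), was at 6.52 and 6.67 in DKO, against 6.17 and 6.31 in Nfkb2-KO. Its libraries did not overlap, and the difference of 0.36 ± 0.14 (interval 0.03 to 0.69) had a limma adjusted p of 0.451, and of 0.0941 with the replicate block. Counted by libraries that do not overlap, 3 of 7 members (Pde2a, Pde3b and Pde4a) were higher in DKO, beside 17.4% of all tested genes.

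Pde4b and Pde4d, the PDE4 genes tied to T cell receptor signalling, differed by less than their spread. Pde4b (chr4:102087543-102607259, plus strand) was at 10.42 and 9.96 in DKO and 10.40 and 10.39 in Nfkb2-KO, a difference of -0.21 ± 0.23 with an interval of -0.75 to 0.34. Pde4d (chr13:108449948-109953461, plus strand) was at 11.36 and 10.83 in DKO and 11.30 and 11.05 in Nfkb2-KO, a difference of -0.08 ± 0.20 with an interval of -0.57 to 0.41. For both genes the DKO libraries spanned the Nfkb2-KO libraries. Neither interval reaches the size of the Pde2a or Pde3b difference.

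Pde7a and Pde8a, the rolipram-insensitive members, did not pass either. Pde7a (chr3:19223108-19311322, minus strand) was at 10.66 and 10.08 in DKO and 10.65 and 10.47 in Nfkb2-KO, a difference of -0.19 ± 0.22 with an interval of -0.72 to 0.34. Pde8a (chr7:81213596-81334533, plus strand) was at 9.35 and 8.96 in DKO and 9.42 and 9.30 in Nfkb2-KO, a difference of -0.20 ± 0.19 with an interval of -0.66 to 0.26. In both genes DKO replicate 2 lay below the Nfkb2-KO libraries and DKO replicate 1 did not. Over the 7 members the median difference was -0.08, beside 0.00 over all tested genes.

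**Figure D2:**
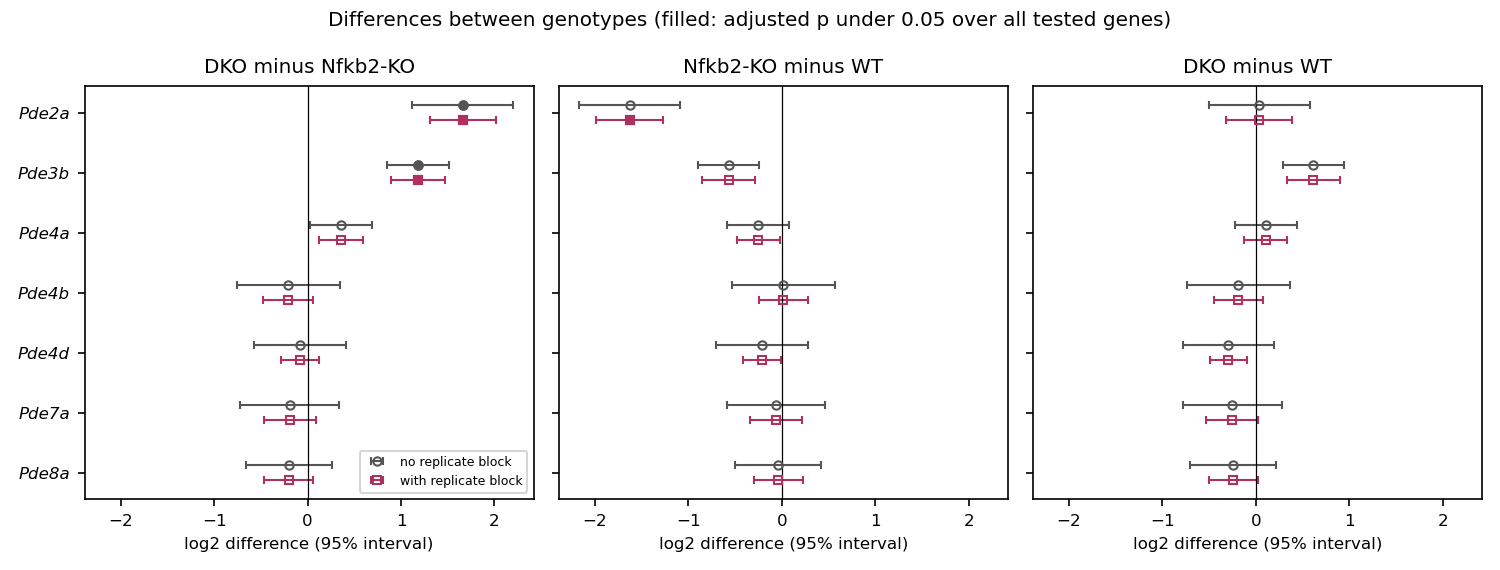
Differences in log2 expression (x axis, with 95% intervals) of the 7 genes (y axis) for DKO minus Nfkb2-KO, Nfkb2-KO minus WT and DKO minus WT, from limma without (grey circles) and with (red squares) the replicate block. Filled symbols passed an adjusted p of 0.05 over 13797 genes. Pde2a sits at 1.66 in the first panel, at -1.63 in the second and at 0.03 in the third, and Pde3b at 1.18, -0.57 and 0.61.

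Against WT, loss of Nfkb2 alone went with less Pde2a. The difference of Nfkb2-KO from WT was -1.63 ± 0.22 (0.324-fold, interval -2.17 to -1.09), with -1.54 within replicate 1 and -1.72 within replicate 2. Without WT replicate 1 it was -1.66, and -1.84 with the block. Pde3b differed by -0.57 ± 0.14 (interval -0.90 to -0.24), and was not called without or with the replicate block. With the block it was called when WT replicate 2 was left out (-0.78), and not when WT replicate 1 was (-0.35, and -0.44 without the block). As this pair had stood out for low values in Nfkb2-KO, no p is given for it here. Pde4a (-0.25, and -0.44 without WT replicate 1), Pde4d (-0.21), Pde7a (-0.06), Pde8a (-0.04) and Pde4b (0.02) had limma adjusted p values of 0.613 or more.

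In Nfkb2-KO against WT, limma called 0 of 7 members, beside 0.341% of all tested genes, while the unadjusted p was under 0.05 for 2 members and 1472 genes. With the replicate block 1 of 7 was called, Pde2a, beside 2.91% of genes. Without the block Pde2a was also called when either RelB-KO library was left out. By the authors' deposited table, 2 of 7 members were lower at an adjusted p under 0.05, beside 2.73% of the genes to which they gave one. The authors' deposited table gives Pde2a a log2 fold change of -1.57 and Pde3b one of -0.74. Both libraries of Nfkb2-KO lay below both of WT for 2 of 7 members, Pde2a and Pde3b, beside 20.9% of all tested genes.

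The summed level of myeloid and dendritic cell markers differed in the same comparison, mostly through Zbtb46. The summed un-logged level of 7 such markers was 643 and 591 in Nfkb2-KO, against 447 and 345 in WT, and lay between 277 and 509 in the DKO and RelB-KO libraries. Most of it was Zbtb46, a dendritic cell transcription factor, at 9.12 and 9.01 in Nfkb2-KO, against 8.49 and 8.07 in WT. The other 6 markers stayed under 5.8 in every library, with Itgax between -0.27 and -0.25. Means in Nfkb2-KO and WT were 4.90 and 4.97 for Lyz2, 3.59 and 3.60 for Cd14, and 3.88 and 3.90 for Fcgr3. For Csf1r they were 3.46 and 3.44, and for Itgam 3.60 and 3.58. The part of these markers in the phosphodiesterase differences was not tested. In bulk samples, fewer cells with a transcript and less of it per cell cannot be told apart.

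None of the 7 members passed between DKO and WT. Pde2a differed by 0.03 ± 0.22 (interval -0.50 to 0.57) between DKO and WT, with 0.20 within replicate 1 and -0.13 within replicate 2. Without WT replicate 1 it differed by -0.0003, and by -0.18 with the block. Pde3b differed by 0.61 ± 0.14 (1.53-fold, interval 0.29 to 0.94), with 0.35 and 0.88 within replicates 1 and 2, and its limma adjusted p was 0.861, and 0.198 with the replicate block. Without WT replicate 1 it was 0.74 and not called, and with the block 0.83 and called. Over the 8 libraries left out in turn its limma adjusted p with the block ran from 0.0453 to 0.998. The authors' deposited table gives Pde3b a log2 fold change of 0.70 in DKO and an adjusted p of 0.0206, and it is the 1 member of 7 that their adjusted p calls, beside 1.23% of genes.

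Limma called 0 of 7 members between DKO and WT without or with the block, beside 0.0145% and 0.0652% of all tested genes, with 1 member and 715 genes at an unadjusted p under 0.05. The other 5 members differed by between -0.29 (Pde4d) and 0.11 (Pde4a). Both DKO libraries lay above both WT libraries for Pde3b, beside 16.6% of genes. They lay below both WT libraries for Pde8a, at 9.35 and 8.96 in DKO against 9.42 and 9.38 in WT, beside 17.6% of genes.

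None of the 7 genes passed between RelB-KO and WT. The differences of RelB-KO from WT ran from -0.15 ± 0.14 for Pde3b to 0.25 ± 0.22 for Pde2a, with limma adjusted p values of 0.9999 for all 7. Of the 7 members 0 were called without or with the block, beside 0.00725% and 0.0145% of genes, 0 had an unadjusted p under 0.05 (171 genes did), and 0 had libraries that did not overlap (9.63% of genes lay above and 11% below). The authors' deposited table also calls 0 of the 7, beside 0.119% of genes. The Pde2a difference rested on RelB-KO replicate 1, the highest library for this gene: it was 0.64 within replicate 1 and -0.15 within replicate 2. Without WT replicate 1 it was 0.21, and 0.028 with the block, and the Pde3b difference was -0.022, and 0.065 with the block. RelB-KO replicate 1 also had the highest Lyz2, a myeloid marker, at 5.79 against 5.61 in DKO replicate 1 and 5.21 in WT replicate 1. Csf1r (3.91) and Cd14 (3.96) were highest there too. Itgam (3.78) and Fcgr3 (4.0) were highest in DKO replicate 1, and Zbtb46 (9.12) in Nfkb2-KO replicate 1. Itgax lay between -0.27 and -0.25 in all libraries. The part of these markers was not tested.

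The knockouts differed from each other in Pde2a as well. Nfkb2-KO was lower than RelB-KO by 1.87 ± 0.22 on the log2 scale (difference -1.87, 0.273-fold), with -2.18 within replicate 1 and -1.57 within replicate 2. Limma called 1 of 7 members without and with the block, beside 0.797% and 4.46% of genes, and that member was Pde2a. As Pde2a had stood out for low values in Nfkb2-KO, this call is no independent support, in any of the fits given here. Without the block this call was lost in 7 of the 8 fits that left out a library, all but the one without RelB-KO replicate 2, and with only the genotypes compared. With the block Pde2a was called whichever library was left out, and the count was 3 of 7 without either WT library. Pde3b (-0.42 ± 0.14, adjusted p = 0.292 with limma) and Pde4a (-0.37 ± 0.14, adjusted p = 0.352) were not called. For these 3 genes both Nfkb2-KO libraries lay below both RelB-KO libraries, beside 21.1% of genes. Between DKO and RelB-KO limma called 0 of 7 without or with the block, beside 0.00725% and 0.0145% of genes, with 398 genes and 1 member at an unadjusted p under 0.05. That member was Pde3b, higher in DKO by 0.76 ± 0.14 (adjusted p = 0.9996, and 0.351 with the block) with libraries that did not overlap, beside 13.2% of genes.

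The effect of RelB loss on this pair was set against the presence of Nfkb2. The difference between DKO and Nfkb2-KO, less the difference between RelB-KO and WT, was 1.42 ± 0.32 for Pde2a and 1.33 ± 0.19 for Pde3b. Limma called 0 of 7 members for this interaction, beside 0.00725% of genes, while the unadjusted p was under 0.05 for 2 members and 614 genes. With the replicate block it called 2 of 7, beside 0.471% of genes. Without WT replicate 1 the interaction was 1.45 for Pde2a and 1.20 for Pde3b, and with the block 1.63 for Pde2a and 1.12 for Pde3b. For the other 5 members the interaction ran from -0.16 (Pde7a) to 0.24 (Pde4a).

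Several members moved the same way with replicate number in every genotype, and so did genes in general. Across tested genes, the differences between replicates correlated between genotypes at 0.812 to 0.887. The share of all genes that moved the same way in every genotype was not counted. Pde4b, Pde4d, Pde7a and Pde8a were higher in replicate 1 than in replicate 2 in all 4 genotypes. Pde7a differed between replicates by 0.58 in DKO, 0.18 in Nfkb2-KO, 0.46 in RelB-KO and 0.04 in WT. Pde4a was lower in replicate 1 in all 4 genotypes, by 0.15 in DKO, 0.13 in Nfkb2-KO, 0.004 in RelB-KO and 0.38 in WT. After centring each library on the mean of its replicate number, Pde2a and Pde3b had a Pearson correlation of 0.63 over the 8 libraries, which share replicate and genotype and are not independent.

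The genes whose pattern was most like each of the pair differed. Among 135 genes whose genotype means spanned at least 1 log2 unit, the 5 closest to Pde2a over the 8 centred libraries were Gbp1 (r = 0.99), Msrb3 (0.98), Matk (0.96), Itgb3 (0.96) and Sytl2 (0.96). Gbp1, an interferon-induced GTPase, was at 8.03 and 8.36 in DKO, 6.72 and 6.93 in Nfkb2-KO, 8.75 and 8.61 in RelB-KO and 8.09 and 8.56 in WT. Those closest to Pde3b were Igfbp4 (0.96), Adarb1 (0.90), Ikzf3 (0.88), Gzmb (0.87) and Plxnd1 (0.85). Ikzf3, the lymphoid transcription factor Aiolos, was at 12.73 and 13.06 in DKO, 11.32 and 11.49 in Nfkb2-KO, 12.46 and 12.60 in RelB-KO and 12.14 and 12.23 in WT. Both sets were picked for likeness over these same libraries, so a shared pattern follows from the choice. The first set was low in Nfkb2-KO. The second was also highest in DKO, except Plxnd1 and Gzmb, whose DKO libraries overlapped those of other genotypes.

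**Figure D3:**
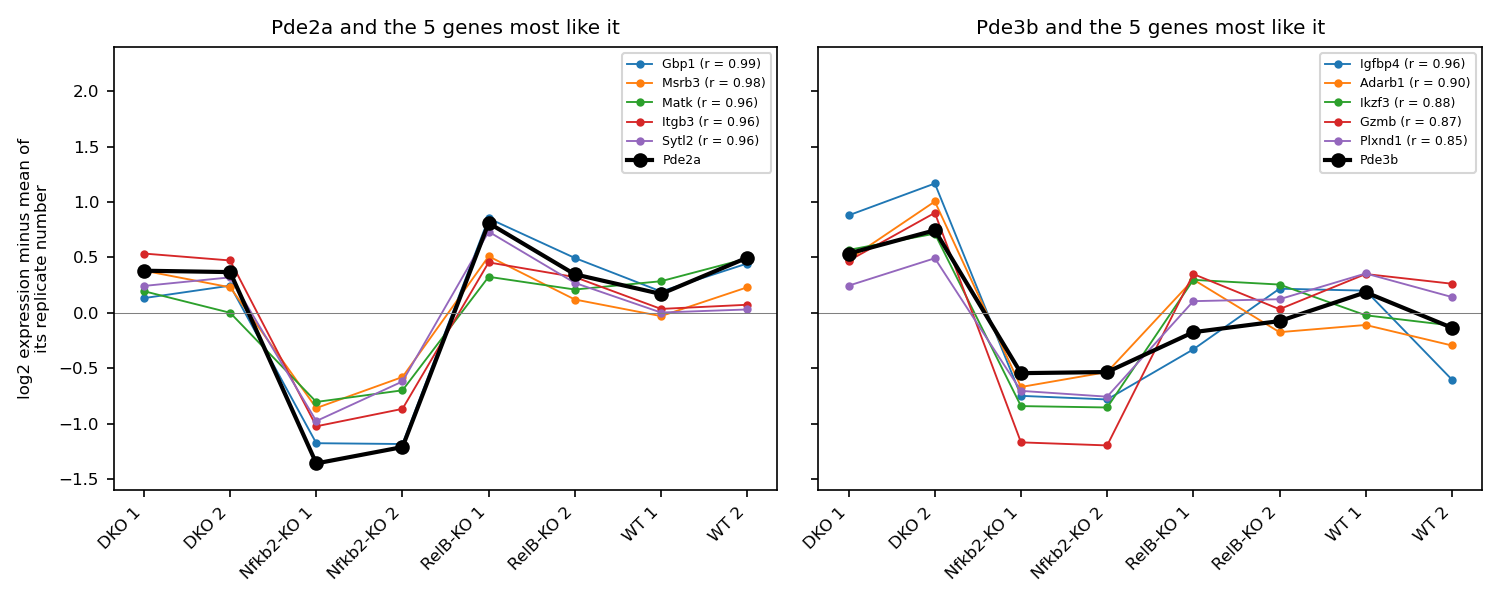
Log2 expression minus the mean of the same replicate number (y axis) in each of the 8 libraries (x axis) for Pde2a (left, black) and Pde3b (right, black) with the 5 genes most like each (coloured, with Pearson's r over the 8 libraries). Pde2a and its 5 genes dip in both Nfkb2-KO libraries, and Pde3b and its 5 genes dip there and peak in DKO replicate 2.

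The promoter table used here holds windows for 5 of the 7 members (Pde2a, Pde4a, Pde4b, Pde4d and Pde8a), 14 windows in all because of alternative starts, and none for Pde3b or Pde7a. The window of the first annotated start of Pde2a is printed because Pde2a had the largest genotype difference, as the 250 bases before the start (RefSeq, GRCm38.p6, chr7:101421441-101421690, plus strand).
Pde2a: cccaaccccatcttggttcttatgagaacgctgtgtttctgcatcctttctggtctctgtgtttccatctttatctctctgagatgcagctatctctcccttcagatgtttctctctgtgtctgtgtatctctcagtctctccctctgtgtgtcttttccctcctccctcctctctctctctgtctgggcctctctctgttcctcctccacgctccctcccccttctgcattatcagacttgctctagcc

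Both strands of these windows were searched for the NF-kB consensus, for the cAMP response element TGACGTCA and for its shorter core TGACG, which lies inside it. None of the 3 motifs was in any of the 5 Pde2a windows, so no letters are in capitals. Among the windows of the other members the NF-kB consensus was in 1 (Pde4b), the full element in 0 and the shorter core in 3 (1 each of Pde4a, Pde4b and Pde8a). Over all 32851 windows of this length the shares were 3.9%, 1.55% and 17.8%. Which start these cells use was not measured, and the windows say nothing of elements outside them. The gene Gm45837 overlaps Pde2a on the same strand, so reads of the pair could be divided by the authors' counting in a way not given here, and neither Gm45837 nor Mir139, which also lies in Pde2a, had a value above 0 in the table.

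Of the 17 other family genes 11 were tested, 5 lay under the minimum and Pde3a was listed at 0. Pde1b, which encodes a phosphodiesterase activated by calcium and calmodulin, was at 9.82 and 9.59 in DKO, 9.26 and 9.47 in Nfkb2-KO, 10.11 and 9.98 in RelB-KO and 9.88 and 9.85 in WT. Both Nfkb2-KO libraries lay below all others. It differed by -0.50 ± 0.11 between Nfkb2-KO and WT (adjusted p = 0.213 with limma, and 0.0429 with the replicate block) and by -0.68 ± 0.11 between Nfkb2-KO and RelB-KO (adjusted p = 0.0712, and 0.00954 with the block). It was the 1 gene of the 11 called in any comparison, and only with the block. In these 2 comparisons the block called 2.91% and 4.46% of all tested genes. Without the block 0 of the 11 were called in any comparison. Pde6d, a prenyl-binding chaperone, had both Nfkb2-KO libraries (9.09 and 9.07) above all others, which lay between 8.78 and 8.90. Its DKO minus Nfkb2-KO difference was -0.21, and that of Pde1c was -0.25. Pde1c was weakly expressed, at 3.32 and 3.34 in DKO against 3.77 and 3.40 in Nfkb2-KO, so its difference rested mostly on Nfkb2-KO replicate 1. Pde4c, Pde5a, Pde6a, Pde6b, Pde6g, Pde7b, Pde8b and Pde11a differed by between -0.08 and 0.05, most at levels where the scale is shrunken.

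Genes that make, sense and answer to cyclic nucleotides were taken from 9 lists, with 75 genes tested. Between DKO and Nfkb2-KO limma called 0 of them, beside 0.768% of all tested genes. With the replicate block it called 11 of 75 (14.7%), beside 5.02%, and these are named here. The lists were chosen with earlier results of these data known, so this share is a description and no independent support. The 6 adenylyl cyclases, which make cAMP, had a median difference of 0.13, with Adcy3 the largest at 0.41 ± 0.15 and 0 called. The 12 Gs-coupled receptors and Gs subunits had a median of -0.11, and 11 of 12 were negative, beside 6860 of 13797 tested genes. Some of these differences were very small, such as that of Adrb1, at 1.86 and 1.88 in DKO against 1.87 and 1.91 in Nfkb2-KO. With the block Ptger2, a prostaglandin E2 receptor, was lower (-0.46), at 10.87 and 10.43 in DKO against 11.41 and 10.81 in Nfkb2-KO. The proton-sensing receptor Gpr65 was lower too (-0.36), while the VIP receptor gene Vipr2 was higher (0.21). Vipr2 was weakly expressed, where the scale is shrunken, at 4.24 and 4.22 in DKO against 4.02 and 4.01 in Nfkb2-KO. Gpr65 was also called with the block between Nfkb2-KO and WT (0.40) and between Nfkb2-KO and RelB-KO (0.60).

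Downstream of cAMP, the 8 protein kinase A subunits and inhibitors had a median of 0.10 between DKO and Nfkb2-KO with 0 called, the largest difference being 0.16 for Pkib, a kinase inhibitor. Of 11 A-kinase anchoring proteins, which tether the kinase, Akap12 (0.45) and Akap6 (0.42) were higher and Akap2 lower (-0.69) with the block, and the median was -0.03. Akap12 was also lower in Nfkb2-KO than in RelB-KO with the block (-0.45). Of 7 other effectors and exporters 0 were called, and Rapgef3, the cAMP-activated exchange factor Epac, had the largest difference (0.62 ± 0.25, adjusted p = 0.474 with limma). Its levels were 7.10 and 7.28 in DKO, against 6.42 and 6.70 in Nfkb2-KO.

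Among the 8 CREB family and coactivator genes Creb1, the cAMP-responsive transcription factor, was lower with the block (-0.35), and the median was -0.07. Of 12 genes known to respond to cAMP, 11 were negative between DKO and Nfkb2-KO, with a median of -0.28, beside 6860 of 13797 tested genes. All 12 were negative between DKO and WT (median -0.23, beside 6808 of 13797) and between DKO and RelB-KO (median -0.21, beside 6938 of 13797). These comparisons share the DKO libraries, and the signs are those of means of 2 libraries. Within replicate 2 some genes went the other way. Nr4a1 was at 13.62 in DKO and 13.55 in WT there, and Cdkn1a at 9.82 in DKO, 9.71 in WT and 9.5 in RelB-KO. Sik1 (10.75 against 10.71) and Fos (7.82 against 7.77) were also higher in DKO than in RelB-KO within replicate 2. The signs were not counted without WT replicate 1, which had the male pattern. The smallest of the negative differences, -0.0084 from WT and -0.0016 from RelB-KO, were those of Ppargc1a. It lay between 0.17 and 0.20 in every library, where the scale is shrunken. With the block Nr4a2 (-1.05), Nr4a3 (-0.56) and Areg (-0.63), encoding nuclear receptors and an epidermal growth factor receptor ligand, were lower in DKO than in Nfkb2-KO. Nr4a2 was at 10.43 and 9.87 in DKO, against 11.32 and 11.08 in Nfkb2-KO, and was also higher in Nfkb2-KO than in RelB-KO with the block (0.65). T cell receptor signals induce these genes too. The 4 tested cGMP genes had a median of -0.07 with 0 called, Gucy1a3 having the largest difference at -0.23. Of 7 ectonucleotidase and adenosine-handling genes Ada, which removes adenosine, was higher with the block (0.42), and the median was 0.20.

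Counts for the remaining comparisons were smaller. Over the same lists 0 genes were called without the block in any of the 7 comparisons, which share libraries with each other. With the block 1 of 75 was called between Nfkb2-KO and WT (1.33%, beside 2.91% of all tested genes), which was Gpr65. Between Nfkb2-KO and RelB-KO 3 of 75 were called (4%, beside 4.46%), which were Gpr65, Akap12 and Nr4a2, while 0 were called in the other 4.

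**Figure D4:**
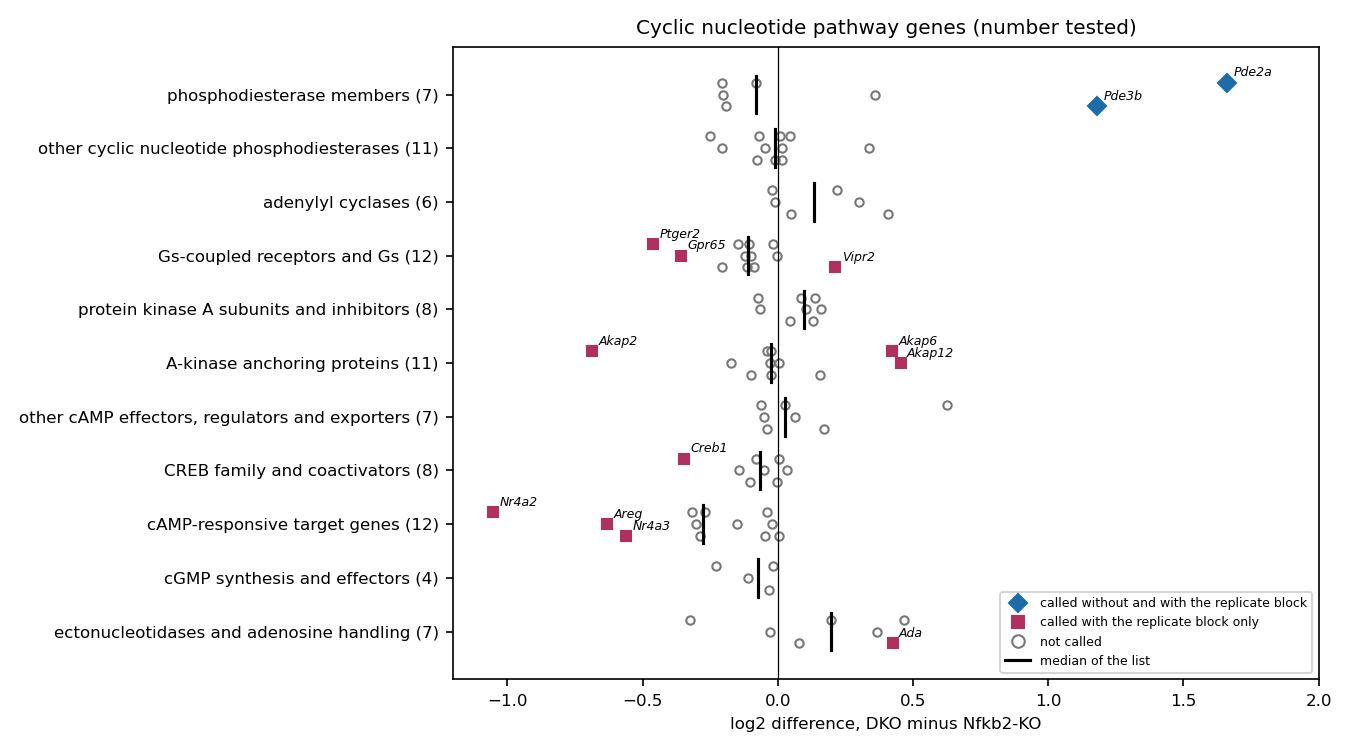
Difference in log2 expression between DKO and Nfkb2-KO (x axis) of every tested gene of the phosphodiesterase family and of the cyclic nucleotide pathway lists (rows, with the number tested). Bars are list medians, diamonds are genes called without and with the replicate block, squares genes called with the block alone and open circles genes not called. Pde2a (1.66) and Pde3b (1.18) lie to the right of every other gene shown, the next being Rapgef3 at 0.62.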

How the data were processed

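Sorted Treg cells of 4 genotypes were profiled by RNA-seq, with 2 libraries each. The authors deposited log2 expression values per gene and library, called RPKM and batch corrected per the file headers. The p-values and adjusted p-values for the knockouts over WT were computed by the authors and deposited with log2 fold changes, by a test that the file headers do not name. The headers give only the knockout; the members' fold changes were taken as relative to WT because they lie near the differences from WT in the expression values. The authors also deposited a score for each gene and library, a z score per the file headers, whose making is not described. These columns were left out. Per the submitters' processing notes, STAR, DESeq2 1.10.1 and mm10 were used, with no role given. The counting program, annotation, strand setting and batch method are not given in the sources used here. Counts were not used, so depths are unknown and counting intervals were not computed.

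Of 22432 genes, 6247 were at 0 in all libraries and 1 had a blank cell. The 13797 whose un-logged values averaged 1 or more entered the tests. All 8 libraries were fitted together by limma 3.58.1 (R 4.3.3) with 4 genotype means, empirical Bayes moderation and a variance trend (4 residual degrees of freedom, 3 with the replicate block), and p-values were Benjamini-Hochberg adjusted over all tested genes. The scripts were tested on simulated data. Intervals are 95%.

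Replicate numbers were taken to pair the libraries: across genes, the differences between replicates 1 and 2 correlated between genotypes at 0.812 to 0.887 in all 6 pairs of genotypes. The members and lists were chosen with earlier results of these data known. Named are all 7 members, the tested other family genes, and, per pathway list, the genes called in any comparison with or without the block, otherwise the gene with the largest difference between DKO and Nfkb2-KO. Alternatives were the block, quantile normalization, other minimums, a pseudocount, only the genotypes compared, no variance trend and leaving out each library. The block combined with leaving out each library was chosen after seeing the data. The B cell marker list is not reported here in full.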

Additional observations from a re-analysis of the deposited data

Results flagged for a closer look

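With the replicate block, but not without it, limma called a difference in the effect of RelB loss on Pde2a and Pde3b between cells without and with Nfkb2. For Pde2a, the difference between DKO and Nfkb2-KO exceeded that between RelB-KO and WT by 1.42 ± 0.22 (SE, adjusted p = 0.0375), and for Pde3b by 1.33 ± 0.18 (adjusted p = 0.0226). Without the block the adjusted p values were 0.599 for Pde2a and 0.276 for Pde3b. With the block and 1 library left out, Pde2a was called in 3 of 8 fits (adjusted p from 0.00868 to 0.266) and Pde3b in 4 of 8 (0.00277 to 0.212). Both genes had been put forward for their difference between DKO and Nfkb2-KO, which is one arm of this test, so it is no independent support.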

How the results depend on the processing

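Between DKO and Nfkb2-KO 2 members were called. Without a variance trend the count was 1, and with only the genotypes compared it was 0, also between Nfkb2-KO and RelB-KO. With the replicate block it was 1 for Nfkb2-KO against WT and 2 for the interaction, and the block changed no other count of called members. Leaving out each library, the count ran from 0 to 1 for DKO against Nfkb2-KO, Nfkb2-KO against WT and Nfkb2-KO against RelB-KO, and was 0 elsewhere. With the block as well it ran from 2 to 2 for DKO against Nfkb2-KO, 1 to 2 for Nfkb2-KO against WT, 0 to 1 for DKO against WT, 1 to 3 for Nfkb2-KO against RelB-KO and 0 to 2 for the interaction. Differences were recomputed for all 7 members in DKO against Nfkb2-KO and Nfkb2-KO against WT, and for Pde2a and Pde3b in the other comparisons; among these, signs changed only on leaving out a library. Between DKO and Nfkb2-KO, Pde4b ran from -0.44 to 0.028, Pde4d from -0.35 to 0.18 and Pde7a from -0.48 to 0.10. Between Nfkb2-KO and WT, Pde4b ran from -0.16 to 0.20, Pde7a from -0.15 to 0.029 and Pde8a from -0.095 to 0.021. Pde2a ran from -0.10 to 0.17 in DKO against WT, -0.11 to 0.61 in RelB-KO against WT and -0.57 to 0.15 in DKO against RelB-KO. With the block Pde2a ran from -0.18 to 0.25, -0.064 to 0.55 and -0.52 to 0.10 in the same comparisons, and Pde3b from -0.36 to 0.065 in RelB-KO against WT. The cause of these changes was not tested. A lone library left in a genotype was assumed to vary like the others.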
